A study of Mus musculus with 10 samples.

Results

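Neutrophils are short-lived phagocytes of the blood that defend against microbes and can be drawn into tumours. The libraries described here are 6 of the 10 in the series: neutrophils sorted as CD11b+ Ly-6G+ cells from mouse blood 14 days after 1 of 3 tumour lines had been placed in the kidney. OS5K_1, OS5K_2 and OS5K_3 (OS5K #1, #2 and #3 in the labels) gave 2 libraries each, and each line was set against the mean of the other 2. All hosts were BALB/c nu/nu mice, which lack a functional thymus and so most T cells, and all 3 lines are human clear cell renal cell carcinoma cells that the series calls derivatives of OS-RC-2. The libraries hold the mouse host's blood cells and not the tumour. The labels used here do not say how the lines were derived, how old the mice were or whether the 2 libraries of a line came from separate animals. P-values therefore cover the spread between libraries alone, which may be technical. The other 4 libraries are those of the line OSPa and of vehicle-injected (sham) mice, 2 each.

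The authors deposited RPKM, read counts scaled to the length of the gene and the size of the library. The 6 libraries had between 13765576 and 15514537 reads, recovered from the steps of the RPKM values. Of 54146 genes in the table, 7830 reached at least 1 RPKM in at least 2 of the 6 libraries and were tested as log2(RPKM + 1), a scale on which differences of low genes are understated. Differences are always the line minus the mean of the other 2 lines. Every library carried transcripts of both sort markers, though their levels do not measure the purity of the sort. Itgam, which encodes CD11b, stood at 53.0 and 35.4 RPKM in OS5K_1, 42.7 and 62.1 in OS5K_2 and 68.2 and 61.2 in OS5K_3. Ly6g stood at 101 and 95.4, 60.02 and 78.5, and 93.3 and 52.7 RPKM in the same order. S100a9, a subunit of calprotectin, lay between 38320 and 46970 RPKM, and the early granule gene Ctsg of immature cells was at 0 in all 6.

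The libraries of a line were about as far from each other as from those of other lines. The mean Euclidean distance over the tested genes was 27.65 log2 units between the libraries of the same line and 28.75 between libraries of different lines, a difference of 1.10 (exact permutation test over the 15 ways to pair 6 libraries, one-sided p = 0.4, smallest possible 0.0667). The closest pair of all was OS5K_2 replicate 2 with OS5K_3 replicate 1, at 19.97, and the farthest OS5K_1 replicate 1 with OS5K_3 replicate 2, at 36.07. Line membership took up 44.5% of the sum of squares, where its share of the degrees of freedom is 40%. With quantile normalization the difference of distances turned to -0.351 (exact permutation test, one-sided p = 0.667).

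**Figure D1:**
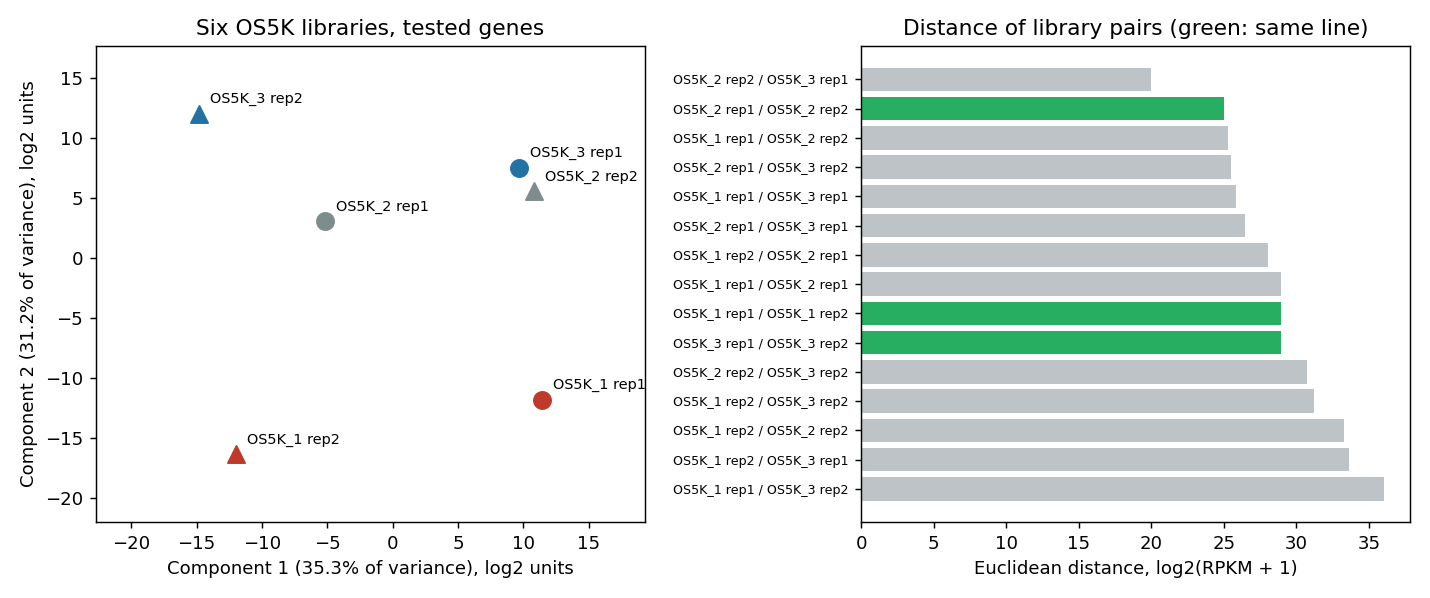
Left, the 6 OS5K libraries on the first and second principal components of log2(RPKM + 1) over the tested genes, in log2 units; circles are replicate 1 and triangles replicate 2. Right, Euclidean distance of each library pair, with pairs of the same line in green. The first component parts the libraries of OS5K_1 (11.45 and -11.97), OS5K_2 (-5.17 and 10.84) and OS5K_3 (9.68 and -14.83). The second puts OS5K_1 at -11.80 and -16.34, OS5K_2 at 3.06 and 5.55 and OS5K_3 at 7.52 and 12.

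Platelet genes and some granule transcripts differed widely between the libraries of a line. Platelets are cell fragments shed by megakaryocytes, and their markers summed to 903 and 1594 RPKM in OS5K_1, 2267 and 1099 in OS5K_2 and 1080 and 2239 in OS5K_3. In each line 1 library was high and 1 low, and the ranges of the 3 lines overlapped. Pf4, platelet factor 4, showed it in single values, with 335 and 589 RPKM, 854 and 392, and 405 and 841. Ltf, which encodes the granule protein lactoferrin, ran from 20.47 to 129 RPKM, with 129 and 27.97 in OS5K_1, 22.9 and 84.7 in OS5K_2 and 105 and 20.47 in OS5K_3. Camp, the cathelicidin precursor, stood at 149 and 39.9, 28.6 and 90.1, and 155 and 28.6 RPKM. Of 18 platelet markers, all tested, 0 had an unadjusted p under 0.05 in any line (up to 6 with a library left out), and of 18 tested secondary granule genes 1 did (Mmp8 in OS5K_1). Other lists also differed within OS5K_1. Relative to all genes, the list median of erythroid markers stood at 0.925 and 0.209 there, and that of class II genes at -0.014 and -0.755. The median of secondary granule genes stood at 0.265 and 0.112 in OS5K_1, -0.294 and 0.049 in OS5K_2 and 0.026 and -0.268 in OS5K_3.

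No gene passed the test among the lines. The limma F test called 0 of 7830 genes at an adjusted p under 0.05 (0%, smallest adjusted p = 0.143), with 576 genes (7.36%) at an unadjusted p under 0.05, where 392 would be expected by chance. Limma-voom on the recovered reads also called 0, with 377 genes at an unadjusted p under 0.05. Each line against the other 2 gave 0 calls as well (0%), with a smallest adjusted p of 0.385 for OS5K_1, 0.288 for OS5K_2 and 0.0615 for OS5K_3. With no adjustment, 863 genes had a p under 0.05 for OS5K_1, 188 for OS5K_2 and 560 for OS5K_3, and voom gave 0 calls for each line, with 279 higher and 245 lower, 90 higher and 71 lower, and 270 higher and 199 lower. With a library left out, at most 2 genes passed for any line (Ear2, Hba-a2 and Igkv14-126, without OS5K_2 replicate 1 or either OS5K_3 replicate), and Gm43796 passed for OS5K_3 under a filter at 5 RPKM. The 95% interval of a difference, with no adjustment, had a median half-width of 0.324 on the log2 scale. Genes could differ by more than that without passing, as Ighd did at -1.46 in OS5K_1. Every value that follows is therefore the size of a difference that did not pass, and the verbs describe levels in these libraries.

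The lines also differed in their overall level, which bears on every count. Over all tested genes the median difference was -0.127 for OS5K_1, 0.055 for OS5K_2 and 0.071 for OS5K_3, and 80.1% of genes were lower in OS5K_1. Of the genes at an unadjusted p under 0.05, 759 were lower and 104 higher in OS5K_1, a split of 12.1% higher that became 59.5% once the libraries were centred on their medians (305 higher, 208 lower). For OS5K_2 centring took the share of higher genes from 71.8% to 37.2% (70 higher, 118 lower), and for OS5K_3 from 86.2% to 54.2% (269 higher, 227 lower). Reads of the 4 adult hemoglobin genes, which enter the same total, made up 9.52% and 5.16% in OS5K_1, 4.40% and 4.39% in OS5K_2 and 5.11% and 3.46% in OS5K_3. With totals rescaled outside hemoglobin, the median difference was -0.09 for OS5K_1, 0.038 for OS5K_2 and 0.053 for OS5K_3. The share of higher genes was then 20.3% in OS5K_1 (124 higher, 487 lower), 59.6% in OS5K_2 and 83.7% in OS5K_3. For the lists described below, counts against the all-gene median or after median centring are given as well.

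**Figure D2:**
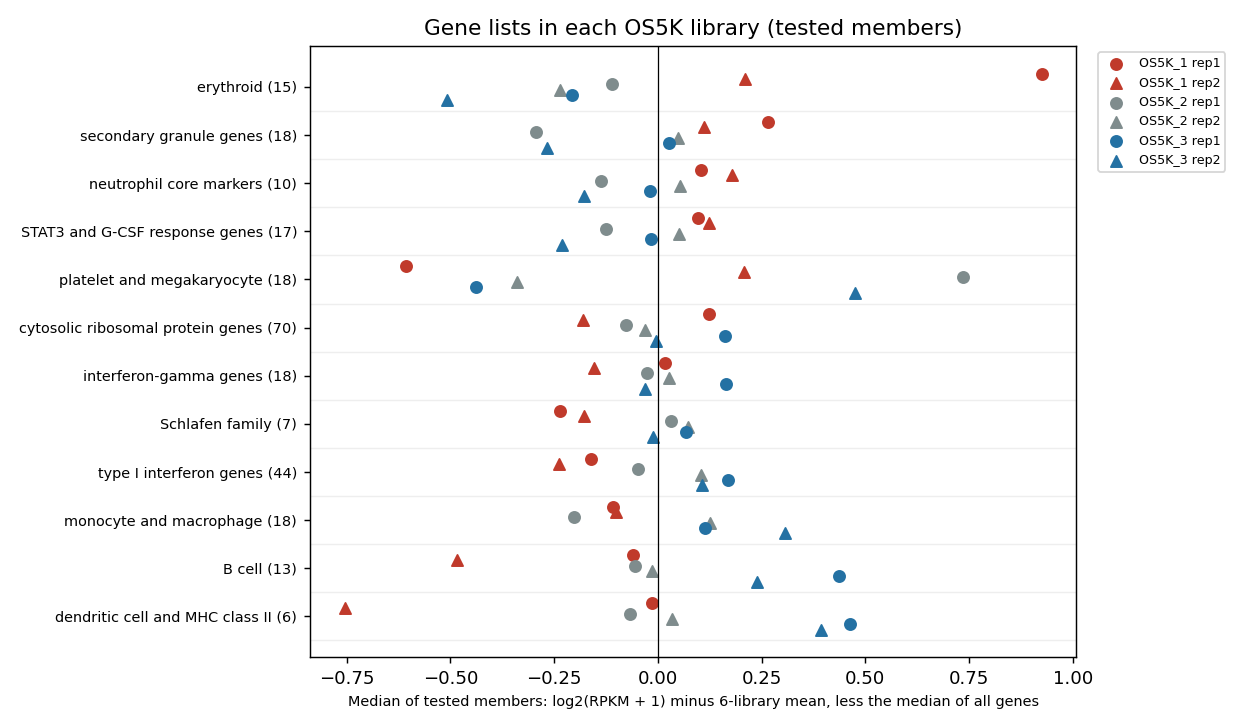
Median over the tested members of each gene list (number in brackets) of log2(RPKM + 1) minus the mean of the 6 libraries, less the same median over all genes, for each OS5K library; circles are replicate 1 and triangles replicate 2. Erythroid markers reach 0.925 and 0.209 in OS5K_1 and are below 0 in the other 4 libraries, type I interferon genes lie at -0.161 and -0.238 in OS5K_1, and platelet markers split the libraries of each line.

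Many genes of the type I interferon response stood at lower levels in OS5K_1 than in the other lines. Interferons bind a receptor whose kinases activate a transcription factor complex that holds IRF9. It binds the interferon-stimulated response element, a DNA motif in the promoters of antiviral genes, and neutrophils carry this pathway ready to use. In OS5K_1, 26 of 44 tested genes of the list were lower at an unadjusted p under 0.05 (all genes 9.69%) and 1 was higher (1.33%). Both OS5K_1 libraries lay below all 4 others for 27 of the 44 (all genes 21.8%). The median difference of the list was -0.395 for OS5K_1, 0.098 for OS5K_2 and 0.292 for OS5K_3, and 39 of the 44 were below the all-gene median in OS5K_1 and 37 above it in OS5K_3. In OS5K_3, 18 were higher at an unadjusted p under 0.05 (all genes 6.17%) and 0 lower (0.983%).

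The promoters of some of these genes, and of some interferon-induced Schlafen genes, hold the core of this motif, and 4 are shown to let it be seen beside the values that follow. The core GAAANNGAAA was searched on both strands in the 250 bases before each gene start of RefSeq's GRCm38.p6 annotation, the build of the deposited table, counting overlapping matches. It was in 33.3% of the 42 windows of the type I interferon list (13 of the 35 genes with a window), in 57.1% of the 7 windows of the Schlafen list (3 of 6 genes) and in 2.98% of all 32851 windows. Slfn5 and Slfn8 belong to the Schlafen list, Ifit3 and Oas1g to the type I list. For each gene the first match is given with up to 55 bases on each side, as far as the gene start, 5′ to 3′ on the strand of the gene and with the matches in capitals.
Slfn5 (chr11:82951892-82952011, + strand): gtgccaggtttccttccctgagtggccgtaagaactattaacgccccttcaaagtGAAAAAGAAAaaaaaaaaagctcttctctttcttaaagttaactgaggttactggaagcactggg
Slfn8 (chr11:83020811-83020913, - strand): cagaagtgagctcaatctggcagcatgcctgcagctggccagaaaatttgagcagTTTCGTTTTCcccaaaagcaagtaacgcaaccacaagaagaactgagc
Ifit3 (chr19:34583318-34583437, + strand): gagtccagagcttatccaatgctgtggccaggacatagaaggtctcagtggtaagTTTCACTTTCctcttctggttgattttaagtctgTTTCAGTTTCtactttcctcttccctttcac
Oas1g (chr5:120887614-120887686, - strand): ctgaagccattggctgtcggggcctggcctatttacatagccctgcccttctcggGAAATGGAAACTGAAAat
The Slfn5 stretch precedes a RefSeq start but lies inside the gene as the deposited table places it, which begins at 82951349. Its match also runs into a row of A. Ifit3 has 2 separate matches, on the other strand, and Oas1g 2 that overlap. The stretch of Ifit3b, a close copy of Ifit3, has the same letters, so the split of reads between these genes is uncertain. Ifit2 and Herc6 had no match in their windows, which says only that these letters are not there.

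Slfn5, a Schlafen family member induced by interferon, stood at 24.1 and 19.5 RPKM in OS5K_1, 35.4 and 44.6 in OS5K_2 and 48.1 and 47.4 in OS5K_3. Both OS5K_1 libraries were below all others and both OS5K_3 libraries above all others, with a difference of -0.97 for OS5K_1 (SE 0.14, unadjusted p = 0.00017, limma adjusted p = 0.392) and 0.68 for OS5K_3 (SE 0.14, adjusted p = 0.496). The gene spans chromosome 11 from 82951349 to 82964840 in mm10, a span that holds the stretch shown above. Ifit2, whose protein binds viral RNA and blocks translation, followed the same order, with 8.17 and 7.42 RPKM, 12.6 and 13.2, and 13.9 and 16.8 (difference for OS5K_1 -0.78, SE 0.12, adjusted p = 0.392). Ifit3 stood at 32.1 and 19.0, 35.3 and 49.0, and 56.1 and 48.0 RPKM (-0.88, SE 0.22, adjusted p = 0.406). Oas1g, a synthetase of the 2-5A signal that activates RNase L, stood at 2.49 and 2.71, 5.13 and 7.27, and 5.41 and 4.91 RPKM (-0.88, SE 0.15, adjusted p = 0.397), so OS5K_1 was low and OS5K_2 and OS5K_3 overlapped. Herc6, a ligase of the ubiquitin-like protein ISG15, stood at 7.29 and 6.54, 9.19 and 10.8, and 12.3 and 12.1 RPKM (-0.60, SE 0.12, adjusted p = 0.404).

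Not every gene of the list was lower: 40 of 44 had a lower mean in OS5K_1 (all genes 80.1%) and 4 a higher one (19.9%). Rsad2 and Ube2l6 were picked after their values were seen. Rsad2, the antiviral enzyme viperin, stood at 223 and 143 RPKM in OS5K_1, 164 and 164 in OS5K_2 and 169 and 157 in OS5K_3, with all 3 lines overlapping. Ube2l6, the enzyme that hands on ISG15, went the other way, with 237 and 121 RPKM in OS5K_1, 110 and 107 in OS5K_2 and 120 and 84.5 in OS5K_3, and was the list's 1 higher gene (0.69, unadjusted p = 0.034). Of 7 tested Schlafen genes, 5 were lower in OS5K_1 at an unadjusted p under 0.05 (all genes 9.69%) and 0 higher (1.33%), among them Slfn8 with 32.8 and 32.6, 41.4 and 46.6, and 45.4 and 49.8 RPKM. That count of 5 became 3 with any single library left out but OS5K_3 replicate 2, and 3 after median centring, and 6 of 7 were below the all-gene median. Genes driven by interferon-gamma, a cytokine with a receptor of its own, had 1 of 18 lower in OS5K_1 at that threshold, beside 9.69% of all genes, and 14 below the all-gene median. The count became 5 without OS5K_1 replicate 1 or OS5K_3 replicate 2 and 2 without OS5K_2 replicate 1. The gene was Gbp9, which encodes a GTPase (8.66 and 7.98, 12.3 and 12.5, and 12.1 and 11.5 RPKM, difference -0.49, SE 0.10, adjusted p = 0.404). Whether the interferon-gamma list differed from the type I list was not tested. With a library left out, between 16 (without OS5K_1 replicate 2) and 28 of the 44 type I genes were lower at an unadjusted p under 0.05 in OS5K_1. The 18 higher in OS5K_3 became 7 without OS5K_3 replicate 1 and 9 without OS5K_2 replicate 1. After median centring the counts were 20 lower in OS5K_1 and 15 higher in OS5K_3.

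**Figure D3:**
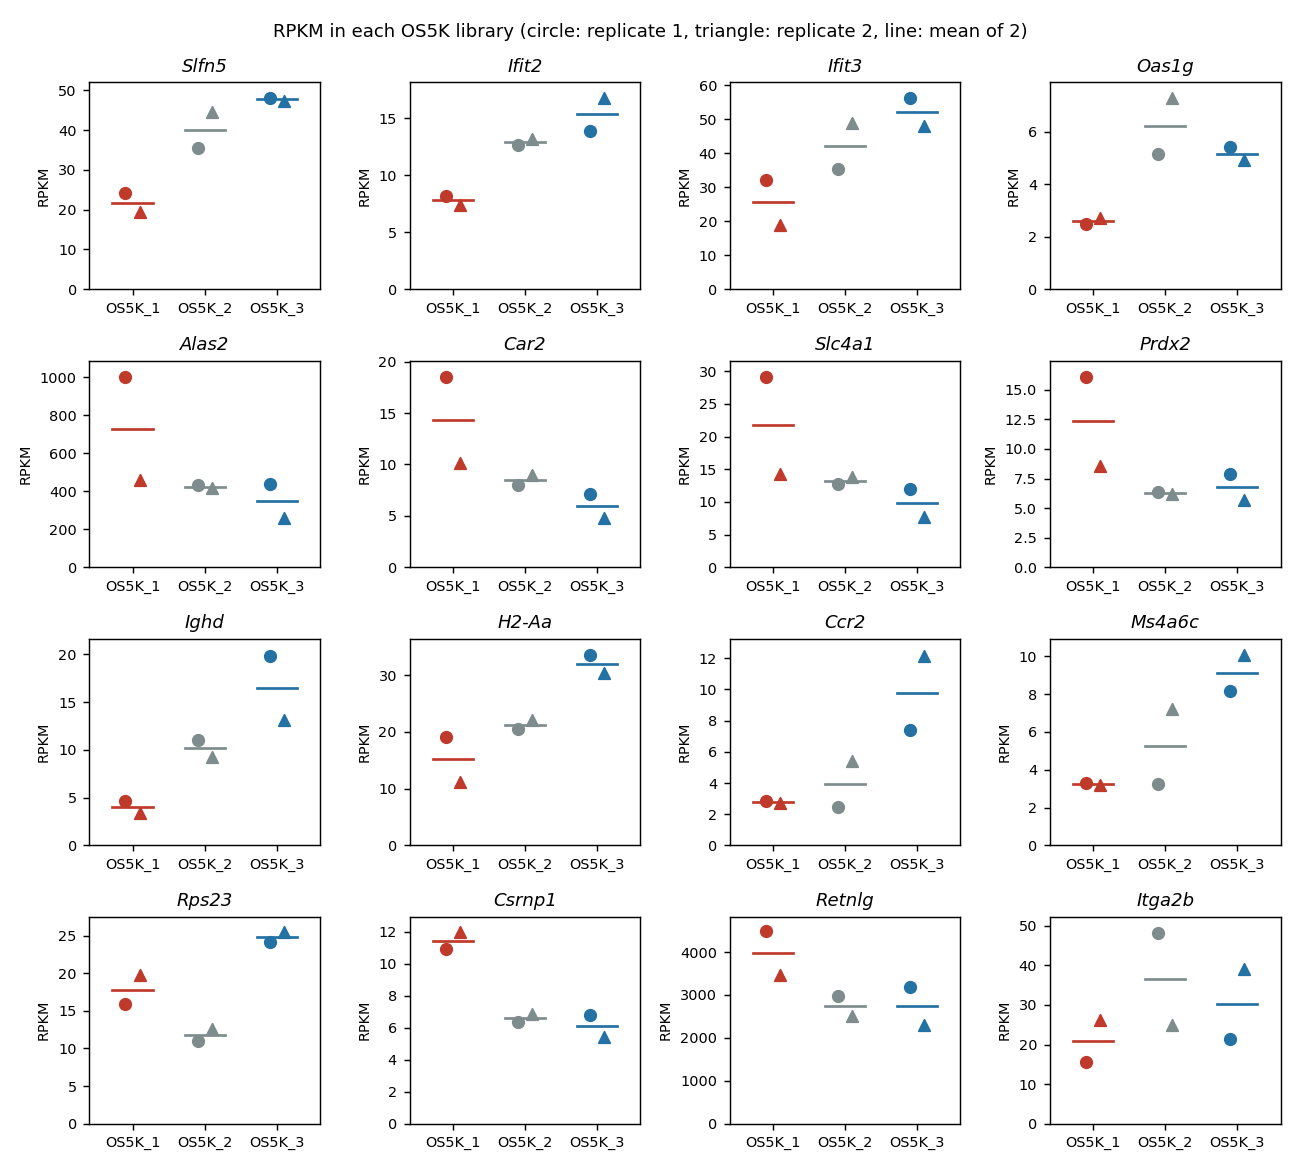
RPKM of 16 genes in the 6 OS5K libraries, on linear axes from 0; circles are replicate 1, triangles replicate 2 and bars the mean of the 2. In the top row OS5K_1 is lowest, in the second row it is highest, and in the third row OS5K_3 is highest; Itga2b, a platelet integrin, splits the libraries of OS5K_2 at 48.2 and 25.0.

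Red cell genes were the main group at higher levels in OS5K_1. Young red cells still carry the mRNA for hemoglobin, for the enzymes of heme synthesis and for the proteins of their membrane. Of 21 erythroid markers, 20 were found in the table and 15 tested, and 13 of the 15 were higher in OS5K_1 at an unadjusted p under 0.05 (all genes 1.33%), with both libraries above all others for 12 (2.09%). The median difference was 0.730 for OS5K_1, -0.212 for OS5K_2 and -0.524 for OS5K_3, where 7 were lower at that threshold (0.983%). Against the all-gene median 14 of 15 were above in OS5K_1 and all 15 below in OS5K_3, and centring gave 14 higher in OS5K_1 and 9 lower in OS5K_3 at that threshold. The summed level was 122100 and 66220 RPKM in OS5K_1, 57920 and 57090 in OS5K_2 and 65560 and 45160 in OS5K_3, so the sum of the lower OS5K_1 library was close to that of the higher OS5K_3 library. In bulk samples, more or fewer cells of a type and more or less RNA per cell cannot be told apart.

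Slc4a1, the anion exchanger band 3, stood at 29.1 and 14.3, 12.7 and 13.8, and 12.03 and 7.63 RPKM (0.81, SE 0.28, adjusted p = 0.406). OS5K_1 replicate 1 was by far the highest, and replicate 2 was just above the 4 others. Alas2, which starts heme synthesis in developing red cells, stood at 998 and 458, 430 and 417, and 436 and 258 RPKM (0.84, SE 0.32, adjusted p = 0.442). Car2, a carbonic anhydrase, stood at 18.5 and 10.1, 7.95 and 8.94, and 7.16 and 4.77 RPKM, above all others in OS5K_1 (0.87) and below all others in OS5K_3 (-0.78, SE 0.24, adjusted p = 0.568). Slc25a37, the mitochondrial iron importer mitoferrin, stood at 60.8 and 47.4, 38.1 and 33.1, and 34.5 and 31.7 RPKM (0.63, SE 0.14, adjusted p = 0.404). Both OS5K_1 libraries were above the 4 others, and OS5K_2 and OS5K_3 overlapped.

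The other genes that the naming rule gave on the higher side of OS5K_1 were Hba-a1, an alpha-globin (0.89), Fam213a (0.85), Prdx2, a peroxidase abundant in red cells (0.78), Csrnp1 (0.76) and Fech, which inserts iron into heme (0.75). The alpha-globin pair cannot be read singly. Hba-a2 stood at 63.9 and 54.9 RPKM in OS5K_1, 7569 and 4875 in OS5K_2 and 33.7 and 3991 in OS5K_3, while Hba-a1 ran from 21550 to 72320 RPKM, and the split of reads between these near-identical genes is uncertain. Hba-a2 was the 1 erythroid gene lower in OS5K_1 (-4.64, SE 2.05, limma adjusted p = 0.496). Without OS5K_3 replicate 1 it was called for OS5K_1 (limma adjusted p = 0.000191) and OS5K_2, and without OS5K_3 replicate 2 for all 3 lines. The 13 erythroid genes higher in OS5K_1 at an unadjusted p under 0.05 became 3 without OS5K_1 replicate 1, 6 without OS5K_3 replicate 2 and 8 without OS5K_2 replicate 2, while 14 of 15 kept a higher mean in each of these fits. The 7 lower in OS5K_3 ranged from 1 (without OS5K_2 replicate 1 or OS5K_3 replicate 2) through 3 (without OS5K_1 replicate 1) and 4 (without OS5K_2 replicate 2) to 12 (without OS5K_1 replicate 2). For the 12 erythroid genes with both OS5K_1 libraries above all others, leaving out a library could not have turned the higher mean. Csrnp1, a nuclear transcription factor outside the lists, was also higher in OS5K_1, with 10.9 and 11.98, 6.34 and 6.89, and 6.77 and 5.42 RPKM (SE 0.12, adjusted p = 0.392).

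On the lower side of OS5K_1 and the higher side of OS5K_3 stood genes of B cells and of antigen presentation. B cells carry immunoglobulin as their antigen receptor and show peptides on MHC class II molecules. Of 16 B cell markers 13 were tested. In OS5K_1, 8 of the 13 were lower at an unadjusted p under 0.05 (all genes 9.69%), and in OS5K_3, 9 were higher (6.17%), with medians of -0.499, 0.019 and 0.596 over the 3 lines. All 13 were below the all-gene median in OS5K_1 and 12 above it in OS5K_3, and centring left 6 and 9 at that threshold. Ighd, the heavy chain of immunoglobulin D on mature naive B cells, had the smallest p of the genes the naming rule gave, with 4.69 and 3.44 RPKM in OS5K_1, 11.1 and 9.26 in OS5K_2 and 19.8 and 13.2 in OS5K_3. The 3 lines did not overlap, and the difference was -1.46 for OS5K_1 (SE 0.19, 95% interval -1.90 to -1.02, unadjusted p = 8.0e-05, adjusted p = 0.385) and 1.20 for OS5K_3 (SE 0.19, adjusted p = 0.446). Fcmr, a receptor for immunoglobulin M, stood at 2.15 and 1.36, 3.66 and 2.97, and 6.95 and 5.40 RPKM. Fcer2a, the low-affinity receptor for immunoglobulin E, stood at 0.974 and 0.945, 1.63 and 1.75, and 3.20 and 2.56 RPKM, levels at which log2(RPKM + 1) understates the difference.

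Class II genes followed. Of 6 tested members of the dendritic cell and MHC class II list, 5 were lower in OS5K_1 (all genes 9.69%) and 4 higher in OS5K_3 (6.17%) at an unadjusted p under 0.05. Centring left 3 and 4, and all 6 were below the all-gene median in OS5K_1 and above it in OS5K_3. Cd74, the invariant chain, is in this list and in the B cell list. H2-Aa, a class II alpha chain, stood at 19.1 and 11.2 RPKM in OS5K_1, 20.45 and 22.1 in OS5K_2 and 33.5 and 30.4 in OS5K_3 (-0.79, SE 0.19, adjusted p = 0.406 for OS5K_1, and 0.82, SE 0.19, adjusted p = 0.496 for OS5K_3). Cd74 stood at 69.3 and 35.5, 66.2 and 86.2, and 107 and 104 RPKM, so OS5K_1 and OS5K_2 overlapped and OS5K_3 was above both. H2-Eb1, a class II beta chain, stood at 16.5 and 9.70, 17.5 and 19.1, and 27.2 and 25.1 RPKM. The class II pseudogene H2-Ea-ps was among the named genes of OS5K_3 too (0.89, SE 0.20, adjusted p = 0.496). The B cell markers summed to 165 and 101 RPKM in OS5K_1, 170 and 198 in OS5K_2 and 269 and 237 in OS5K_3, so OS5K_1 replicate 1 was close to OS5K_2 and replicate 2 was the low one. The B cell counts became 5 in OS5K_1 without OS5K_1 replicate 2 and 12 without its replicate 1, with 6 to 11 in OS5K_3. The class II count of 5 in OS5K_1 became 2 without OS5K_1 replicate 2 and 3 without OS5K_2 replicate 2 or either OS5K_3 replicate, and the 4 in OS5K_3 became 2 without either OS5K_3 replicate.

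OS5K_3 also had the highest levels of a set of monocyte genes. Monocytes are circulating precursors of macrophages. Of 18 tested markers, 6 were higher in OS5K_3 at an unadjusted p under 0.05 (all genes 6.17%) and 6 lower in OS5K_1 (9.69%), with medians of -0.341, -0.022 and 0.279 over the lines. Against the all-gene median 15 were below in OS5K_1 and 15 above in OS5K_3, and centring left 4 lower and 4 higher at that threshold. The count of 6 in OS5K_3 became 3 without OS5K_1 replicate 2 or OS5K_3 replicate 2, and that in OS5K_1 became 1 without OS5K_1 replicate 2 and 3 without its replicate 1. Ccr2, the chemokine receptor by which monocytes leave the marrow, had the largest difference of any gene the rule named for OS5K_3, with 2.86 and 2.73 RPKM in OS5K_1, 2.48 and 5.39 in OS5K_2 and 7.39 and 12.1 in OS5K_3 (1.31, SE 0.27, 95% interval 0.69 to 1.94, adjusted p = 0.496). Ms4a6c, a membrane protein of monocytes, stood at 3.32 and 3.19, 3.27 and 7.20, and 8.16 and 10.1 RPKM (1.01, SE 0.24, adjusted p = 0.496), and its neighbour Ms4a6d at 4.19 and 4.53, 2.91 and 7.43, and 7.52 and 12.2. These are close copies, so their values are uncertain. Ctss, the protease cathepsin S, stood at 23.4 and 27.1, 27.7 and 36.0, and 40.5 and 54.2 RPKM (0.71, SE 0.17, adjusted p = 0.496).

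The lines overlapped for 2 further monocyte genes, picked after their values were seen. Csf1r, the receptor for the growth factor of macrophages, stood at 97.2 and 80.6 RPKM in OS5K_1, 90.2 and 105 in OS5K_2 and 108 and 97.5 in OS5K_3, and Ly6c2 at 34.9 and 26.8, 26.2 and 35.2, and 35.4 and 25.7. The monocyte list summed to 490 and 434 RPKM in OS5K_1, 497 and 571 in OS5K_2 and 587 and 589 in OS5K_3. Across the lines the B cell and monocyte markers had their lowest and highest means where the interferon genes did, and the erythroid markers the reverse, and the part of these cells in the interferon difference was not tested. The named genes of OS5K_1 also took in Ear2, a ribonuclease of eosinophils (2.55 and 2.42, 3.65 and 11.3, and 8.43 and 10.1 RPKM, difference -1.34, SE 0.34, adjusted p = 0.406), which came under the threshold without OS5K_2 replicate 1 (-1.69, adjusted p = 0.0499). Of the eosinophil and basophil markers tested beside Ear2, Ccr3 differed by -0.21 in OS5K_1 and Siglecf by -0.08, both overlapping the other lines. Clec4a1, a C-type lectin (-0.82), Pmaip1, the cell death protein NOXA (-0.90), and Ifit3b (-0.78) completed the lower side of OS5K_1.

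**Figure D4:**
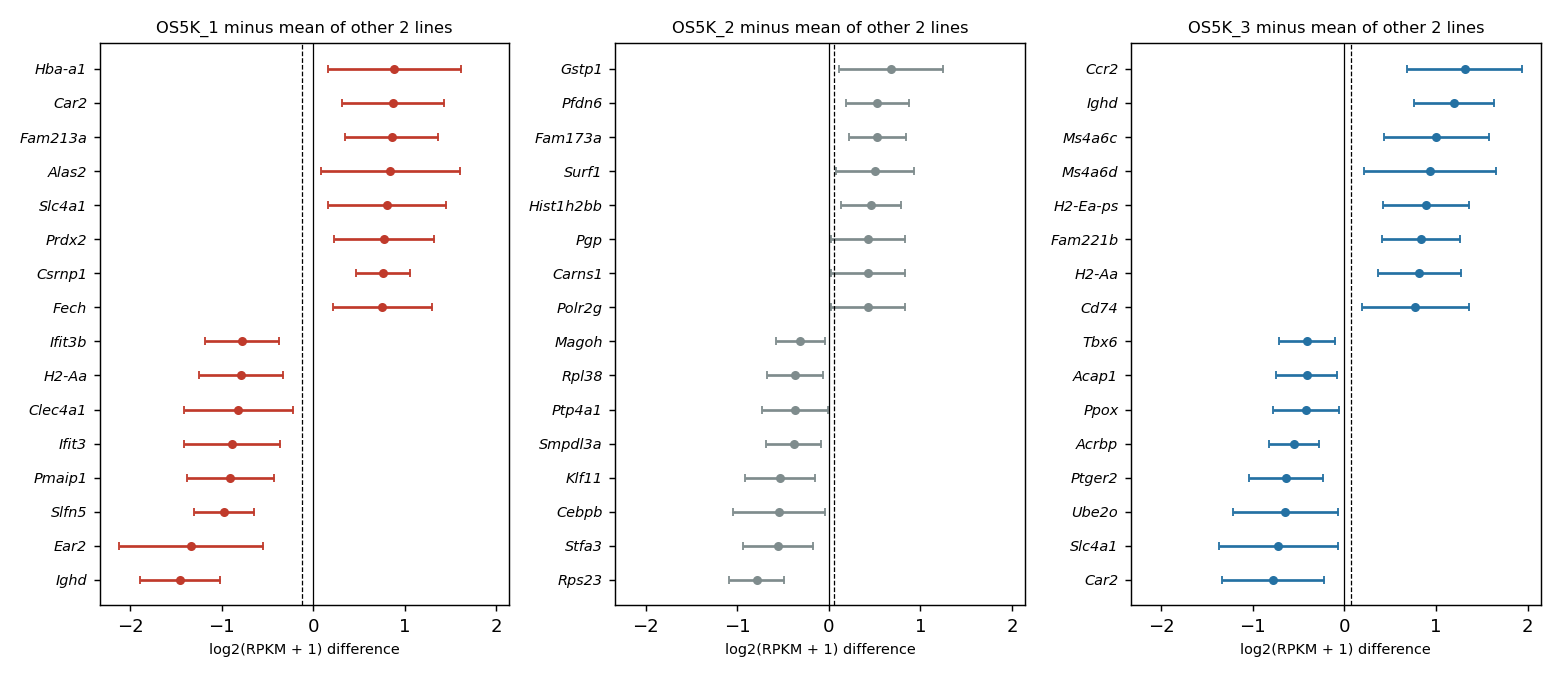
Difference in log2(RPKM + 1) of each line from the mean of the other 2, with its 95% limma interval, for the 16 genes the naming rule gave per line; the solid line is 0 and the dashed line the median of all genes. Intervals that miss 0 were a condition of being named here, and no gene passed the adjustment over all 7830; differences reach -1.46 for Ighd in OS5K_1 and 1.31 for Ccr2 in OS5K_3, while those of OS5K_2 lie between -0.79 and 0.68.

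OS5K_2 stood between the other lines for most of these genes and had the fewest genes at an unadjusted p under 0.05. These were 188 of 7830, fewer than the 392 that would be expected by chance. At an unadjusted p under 0.05, 1.72% of all genes were higher and 0.677% lower, and its libraries lay above the 4 others for 6.39% of genes and below them for 2.13%. On the higher side were Gstp1, a glutathione transferase, with 10.6 and 5.70 RPKM in OS5K_1, 13.1 and 19.1 in OS5K_2 and 12.7 and 10.5 in OS5K_3 (0.68, SE 0.24, adjusted p = 0.984), Pfdn6, a prefoldin subunit (0.53), Fam173a (0.53), Surf1, an assembly factor of cytochrome c oxidase (0.51), the histone gene Hist1h2bb (0.46), the phosphatase gene Pgp (0.43), Carns1, which makes carnosine (0.43), and Polr2g, a subunit of RNA polymerase II (0.43). On the lower side were the protease inhibitor gene Stfa3 (-0.56), one of a family of close copies, Cebpb, a transcription factor of emergency granulopoiesis (-0.54), and Klf11 (-0.53), Smpdl3a (-0.38), Ptp4a1 (-0.37), Rpl38 (-0.37) and Magoh (-0.31). Cebpb stood at 201 and 345, 187 and 152, and 225 and 233 RPKM, with the spread inside OS5K_1 as wide as the gap between lines. After median centring the higher side of OS5K_2 was the smaller (70 against 118 genes).

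Rps23, a protein of the small ribosomal subunit, parted all 3 lines. It stood at 15.9 and 19.7 RPKM in OS5K_1, 10.9 and 12.6 in OS5K_2 and 24.1 and 25.4 in OS5K_3, with a difference of -0.79 for OS5K_2 (SE 0.13, unadjusted p = 0.00038, adjusted p = 0.984) and 0.74 for OS5K_3 (SE 0.13, adjusted p = 0.446). Ribosomal protein genes have many processed pseudogenes, and the labels do not say how reads with several matches were counted, so single genes of this group are uncertain. Of 70 tested genes of the group, 16 were higher in OS5K_3 at an unadjusted p under 0.05 (all genes 6.17%) and 0 lower, and 56 of 70 were above the all-gene median there. The 16 became 25 without OS5K_1 replicate 1, 10 without OS5K_3 replicate 1 and 9 without its replicate 2. In OS5K_1 11 were lower (9.69%), a count that became 1 after median centring or without OS5K_1 replicate 2, 25 without OS5K_1 replicate 1, 5 and 4 without OS5K_2 replicates 1 and 2 and 6 without OS5K_3 replicate 1. In OS5K_2 2 were higher and 4 lower. Rpl13a stood at 7.37 and 5.23, 4.87 and 5.73, and 9.32 and 9.90.

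Both OS5K_3 libraries lay below the 4 others for 2.22% of all genes and above them for 14.7%. On that lower side stood Car2 and Slc4a1 of the red cell group, Ube2o, a ubiquitin ligase of maturing red cells (28.6 and 15.1, 15.6 and 13.5, and 12.7 and 9.15 RPKM, difference -0.64), Ptger2, a receptor for prostaglandin E2 (8.37 and 8.48, 6.63 and 8.82, and 3.86 and 5.92 RPKM, difference -0.64, SE 0.17, adjusted p = 0.550), and Acrbp (-0.55), Ppox, an enzyme of heme synthesis (-0.41), Acap1 (-0.41) and Tbx6 (-0.41). Genes of the F test not yet named were Hint1, a nucleotide hydrolase, with 5.86 and 5.75 RPKM in OS5K_1, 8.95 and 9.68 in OS5K_2 and 10.1 and 11 in OS5K_3 (F-test adjusted p = 0.568), Xrn2, a nuclear exonuclease, with 6.22 and 6.61, 9.23 and 9.08, and 10.7 and 11.1, and Mtpap, the mitochondrial poly(A) polymerase, with 4.03 and 3.49, 5.34 and 4.84, and 7.56 and 6.85. Each had OS5K_1 lowest and OS5K_3 highest, with no overlap between the 3 lines. Fam221b was also higher in OS5K_3 (0.84, SE 0.18, adjusted p = 0.496). The smallest F-test p of all belonged to the predicted gene Gm43796, which the naming rule leaves out and which was picked after its values were seen, at 8.26 and 8.47 RPKM in OS5K_1, 5.32 and 5.51 in OS5K_2 and 16.9 and 21.4 in OS5K_3. It also gave the smallest adjusted p of OS5K_2 and of OS5K_3.

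The 10 neutrophil core genes had a median difference of 0.086 in OS5K_1, -0.025 in OS5K_2 and -0.06 in OS5K_3. Against the all-gene median 8 were above in OS5K_1, and 9 below in each of the other lines. Both OS5K_1 libraries lay above the 4 others for 3 of the 10 (all genes 2.09%): Ly6g (0.49), Retnlg and Mmp8. Differences of the 10 core genes ran from -0.41 for Itgam to 0.54 for Retnlg in OS5K_1, and none passed the test. Retnlg, a resistin-like protein of neutrophils, stood at 4480 and 3470 RPKM in OS5K_1, 2968 and 2498 in OS5K_2 and 3196 and 2304 in OS5K_3, and Mmp8, neutrophil collagenase, at 516 and 492, 414 and 414, and 421 and 393, in both cases with OS5K_1 above the 4 others. Cxcr2, through which chemokines attract neutrophils, had levels of 747 and 780, 710 and 820, and 761 and 743 RPKM, Csf3r, the G-CSF receptor, at 1383 and 1274, 1371 and 1669, and 1586 and 1276, and Il1b at 1891 and 1919, 1644 and 2076, and 1948 and 1649. Mmp9 ran from 447 to 611 RPKM with all lines overlapping, and S100a8 from 24140 to 32630 with OS5K_2 below the 4 others. Osm, the cytokine oncostatin M, stood at 22.3 and 27.5, 13.3 and 17.5, and 18.5 and 15.5 RPKM (0.59 for OS5K_1, SE 0.16, adjusted p = 0.406), and Tsc22d3, a glucocorticoid-induced gene, at 186 and 245, 127 and 152, and 149 and 169 (0.52, SE 0.15, adjusted p = 0.406).

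The remaining lists are given by their counts at an unadjusted p under 0.05, beside 1.33% higher and 9.69% lower of all genes in OS5K_1. In OS5K_1 there were 2 higher and 0 lower of 17 genes of the STAT3 and G-CSF response, 2 and 0 of 20 of circulating mature neutrophils, 1 and 0 of 18 of secondary granules, 0 and 0 of 8 of tertiary granules, 1 and 0 of 27 of glycolysis and hypoxia, 0 and 0 of 10 chemoattractant receptors, 3 and 0 of 14 tumour-associated factors and 1 and 0 of 10 circadian and glucocorticoid genes. There were 0 higher and 2 lower of 25 NF-kB targets, 0 and 3 of 24 immediate early genes, 0 and 3 of 20 heat shock genes, 0 and 2 of 48 respiratory chain genes and 1 and 0 of 7 proliferation genes. These counts depended on the scaling. Median centring gave 6 higher of the 17 STAT3 and G-CSF genes, 6 of the 18 secondary granule genes, 3 of the 27 glycolysis and hypoxia genes and 3 of the 25 NF-kB targets in OS5K_1, and 0 lower immediate early, heat shock and respiratory chain genes. Against the all-gene median, 19 of 20 circulating mature neutrophil genes, 16 of 18 secondary granule genes, 8 of 8 tertiary granule genes, 22 of 27 glycolysis and hypoxia genes and 14 of 17 STAT3 and G-CSF genes were above in OS5K_1, and 33 of 48 respiratory chain genes below. They depended on single libraries too: without OS5K_1 replicate 1, 13 respiratory chain genes, 6 heat shock genes and 5 NF-kB targets were lower and 4 STAT3 and G-CSF genes higher, and without OS5K_1 replicate 2, 1 respiratory chain and 1 heat shock gene were lower. T and NK cell markers had 4 tested members, 2 of them lower, eosinophil and basophil markers 3, 1 lower, plasma cell markers 2 and sex-linked genes 3, neither with any. The 8 primary granule genes had no tested member and summed to between 0.481 and 1.85 RPKM. In OS5K_2 these lists held 3 lower genes of the STAT3 and G-CSF response, 2 lower tumour-associated factors, 1 higher and 1 lower circadian or glucocorticoid gene, 1 higher T or NK cell marker and 1 lower plasma cell marker (all genes 1.72% higher and 0.677% lower). In OS5K_3 they held 2 higher NF-kB targets, 2 higher heat shock genes, 2 higher eosinophil or basophil markers, 1 higher immediate early gene and 1 higher proliferation gene (6.17%), and 0 lower. Xist and Prg2 were listed at 0 in all 6 libraries.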

How the data were processed

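The authors deposited RPKM values per gene and library. Coordinates are those of mm10 (submitters' processing notes), and cDNA was made with SMART-Seq v4, per the labels' protocols; aligner, counting tool and strand use: not given in the sources used here. Read totals were recovered from the RPKM steps (tolerance 0.02 reads, 84.7% of values above 0 whole). Genes with at least 1 RPKM in 2 of the 6 OS5K libraries were fitted with limma 3.58.1 in R 4.3.3 on log2(RPKM + 1), with 3 line means, trend and robust settings and 3 residual degrees of freedom. P-values were Benjamini-Hochberg adjusted over 7830 genes, with calls under 0.05. The 3 contrasts share libraries and sum to 0. Libraries of a line differed by more than counting noise (median chi-square per gene 3.12 to 4.76, against 0.455 from counting alone). The fit was tested on simulated data.

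With no call, up to 8 genes per line and direction were named, by size, among those at an unadjusted p under 0.05, a mean of at least 5 RPKM and no overlap with the other 4 libraries, without predicted genes and some others not reported here. Others were the 8 of smallest F-test p, list members of smallest p and 10 neutrophil genes. Rsad2, Ube2l6, Csf1r, Ly6c2, Pf4, Camp and Hba-a2 were picked after their values were seen. Members and lists were chosen with earlier results of these data known. Alternatives were a replicate block, all 10 libraries, other scalings, filters and pseudocounts, limma-voom on recovered reads and each library left out.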

Additional observations from a re-analysis of the deposited data

How the results depend on the processing

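No gene was called in the F test or for any line under a replicate block, with all 10 libraries in the fit, quantile normalization, median centring, rescaling outside hemoglobin, limma without trend and robust, no filter, pseudocounts of 0.1 and 5 or limma-voom. A filter at 5 RPKM gave 1 call for OS5K_3 (Gm43796, difference 1.37, adjusted p = 0.0272). With 1 library left out the counts ran from 0 to 2 for OS5K_1, 0 to 1 for OS5K_2, 0 to 2 for OS5K_3 and 0 to 2 for the F test. The genes were Ear2 (without OS5K_2 replicate 1), Hba-a2 (without either OS5K_3 replicate) and the immunoglobulin segment Igkv14-126 (without OS5K_3 replicate 2). In such fits the lone library is assumed to vary like the others. The difference of distances ran from 0.331 to 2.90 with a library left out, a check added after the data were seen, and was -0.351 with quantile normalization. Of 76 differences of named genes, none turned direction in 1285 values under alternatives, but much of this was fixed in advance. Many of these genes were named for having no overlap with the other lines, so leaving out a library could not turn them. The replicate block, the filters, all 10 libraries in the fit and limma without trend and robust leave the differences themselves unchanged. For genes without overlap, only the other scalings and limma-voom could have turned a direction.

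Replicate 1 minus replicate 2 correlated at -0.339 between OS5K_1 and OS5K_2, 0.459 between OS5K_1 and OS5K_3, and -0.394 between OS5K_2 and OS5K_3. The replicate numbers thus had no common direction, with OS5K_2 opposite to the other lines. A block by replicate number does not follow that split. The replicate block gave 0 calls for every line and in the F test (smallest adjusted p = 0.0506, for OS5K_1). Leaving out a library moved the erythroid count in OS5K_1 between 3 and 13 of 15 and the interferon count between 16 and 28 of 44. Depth limits genes near 1 RPKM: in the shallowest library 1 read in a gene of 1 kb is worth 0.0726 RPKM.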
